A study of Homo sapiens with 4 samples.

Results

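The 9 genes described here encode the plakophilins PKP1, PKP2, PKP3 and PKP4, the p120 catenin family members CTNND1, CTNND2 and ARVCF, plakoglobin (JUP) and beta-catenin (CTNNB1). They were chosen by name: every probe that was not a control and carried one of these gene names was taken, which gave 20 of the 50238 probes on the array and 9 of the 19614 gene symbols matched. HCT116 is an epithelial cell line derived from a colorectal carcinoma, and both groups of arrays came from stable transfectants of it. The vector control (vec) was compared with a clone carrying a plasmid that encodes a short hairpin RNA against PKP3 (shpkp3-2), and 2 arrays were hybridized per clone. Cells of both clones were kept under 5 μg/ml puromycin according to the sample labels, whereas the methods of the study name blasticidin. Each group stands for 1 clone, so a difference between vec and shpkp3-2 is a difference between 2 clones of 1 cell line. RNA was collected on 2 occasions, the first giving vec 1 and shpkp3-2 1 and the second giving vec 2 and shpkp3-2 2. A single slide carried the 4 arrays, and each clone held its own neighboring positions on it, so that position and clone cannot be told apart.

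Proteins of this group share a domain of armadillo repeats, with which they bind the cytoplasmic tails of cadherins or other junction proteins. In desmosomes, PKP1, PKP2 and PKP3 and plakoglobin link the desmosomal cadherins, the desmogleins and desmocollins, to desmoplakin and so to keratin filaments. In adherens junctions, p120 catenin (CTNND1) binds E-cadherin near the membrane and holds it at the surface, while beta-catenin or plakoglobin joins E-cadherin to alpha-catenin and actin. PKP4, also called p0071, is found at both kinds of junction and is closer in sequence to the p120 catenins than to the other plakophilins. Beta-catenin also works as the transcriptional coactivator of the Wnt pathway, and HCT116 cells are known to carry a stabilizing mutation in it. Since the plakophilins overlap in the partners they bind, the comparison asks whether the transcripts of the relatives were higher in the clone with little PKP3 transcript.

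Each probe is a DNA oligonucleotide of 60 bases, and what a value means depends on which transcript that oligonucleotide meets. The letters A to D order the probes of 1 gene by their mean normalized signal, A being the brightest. The stretches of 30 bases printed next belong to the probes on which the comparisons turn, namely the only probe of PKP3, the only probe of JUP, the brightest probes of PKP2 and PKP4, the PKP2 probe with the lowest difference, and the brighter pairs of probes for CTNND1, ARVCF and CTNNB1. They are written 5′ to 3′ as the array files give them, and capitals mark AATAAA, the common polyadenylation signal, where the oligonucleotide holds it.
PKP3 (bases 1 to 30): gctcaaggctgctctggtgtatggggtggt
PKP2 A (bases 28 to 57): attcctccagatAATAAAtgtgtgttcaga
PKP2 D (bases 1 to 30): atcttttccacagagaaaggcaactgtgat
PKP4 A (bases 31 to 60): tctattcacataaaagaaaAATAAAtgtgg
CTNND1 A (bases 1 to 30): tagaaactaccaatcccaactacgtaatag
CTNND1 B (bases 1 to 30): aaggagcagaaagatgtgtttttgggaaga
ARVCF A (bases 1 to 30): gagaaaaagcattaaaaataagccaaaata
ARVCF B (bases 1 to 30): aggcccagcctcttgttcttagggcttgga
JUP (bases 1 to 30): atggagtgagtcacctgctccagaagatgc
CTNNB1 A (bases 1 to 30): tgatcaaaaactatttgggatatgtatggg
CTNNB1 B (bases 1 to 30): agtttcctatgggaacaattgaagtaaact

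Only the PKP2 A and PKP4 A oligonucleotides held AATAAA, searched on the printed strand alone, that is 2 of 20, while 4.4% of all probes on the array held it. The longest run of identical bases shared by probes of different members was 11 bases, and none of the 20 sequences occurred under another probe name. The PKP3 oligonucleotide shared at most 8 bases in a row with a probe of another member. G and C made up 60.0% of its bases, against 25.0% of ARVCF A and 58.3% of ARVCF B. The array design was made on the genome build hg18, and the files list no chromosome position for these probes.

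The signal of a probe is given below as the processed signal of each array, a linear intensity from which the scanner software has subtracted background. Differences were taken on the log2 scale after subtraction of the 75th percentile of each array, and they are always shpkp3-2 minus vec. That percentile was 499 on vec 1 and between 374 and 381 on the other arrays, so a signal on vec 1 has to be about that much larger to reach the same normalized level. A probe was tested with limma where it was marked well above background by the software on both arrays of vec, of shpkp3-2 or of both, and p-values were adjusted over all 30512 probes that met this. Of the 20 probes, 17 were tested, from 7 genes. The 3 probes that were not tested were the single probe of PKP1 and both probes of CTNND2. No value of 1 probe is set against that of another, since brightness differs between oligonucleotides.

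**Figure D1:**
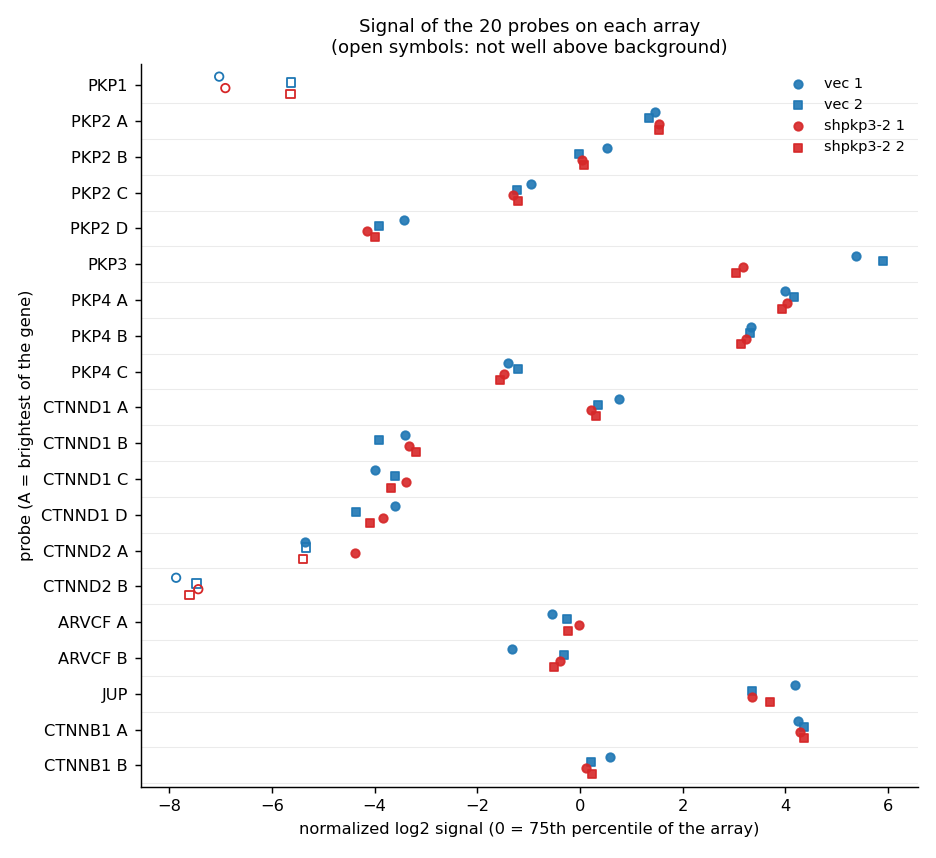
The plot of signal by array gives the normalized log2 signal (x axis, with 0 at the 75th percentile of the array) of the 20 probes (y axis), with a circle for the first RNA collection, a square for the second, blue for vec and red for shpkp3-2. Only PKP3 shows a wide gap between the colors, from 5.39 and 5.91 in vec to 3.17 and 3.04 in shpkp3-2.

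PKP3, the plakophilin of nearly all epithelial desmosomes, was the one member called lower. Its processed signal was 20850.3 on vec 1, 22840 on vec 2, 3414 on shpkp3-2 1 and 3078 on shpkp3-2 2. The clones were far apart and did not overlap. The remaining level was 17.2% of vec with a 95% confidence interval of 11.6% to 25.4% (log2 difference -2.54, SE 0.23, limma, adjusted p = 0.0188). It was one of 44 probes called lower, while 75 were called higher, and 28 tested probes had a lower log2 difference. It missed the threshold with every probe tested regardless of detection (adjusted p = 0.135) and with a weaker detection flag (adjusted p = 0.145), at the same log2 difference. In these bulk RNA samples, fewer cells with a transcript and less transcript per cell cannot be told apart.

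None of the other members passed the test in either direction. Their 16 tested probes, from 6 genes, were all well above background on the 4 arrays. The called share was 0 of 16 higher and 0 of 16 lower, beside 0.246% called higher and 0.144% called lower among all tested probes, so that 0 of 16 does not stand apart from the background. A limma fit that blocked on the occasion of RNA collection raised the calls over the array to 503 higher and 338 lower, with still 0 among the 16. Without adjustment, 0 of the 16 had a limma p under 0.05, while 12.3% of all tested probes did. The smallest unadjusted limma p among them was 0.128, and their adjusted p-values ran from 0.533 to 0.984. Their log2 differences ran from -0.39 to 0.40 with a median of -0.11, against a median of 0.05 over all tested probes. Above 0 lay 7 of them and below 0 lay 9.

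The intervals show what sizes of change these arrays leave possible. All 16 intervals of 95% held 0. The upper bound lay below a 2-fold rise for 15 probes and below a 1.5-fold rise for 11, and the exception to the first count was ARVCF B, with an upper bound of 2.33-fold. The lower bound lay above a 2-fold fall for 15 probes, with the JUP probe as the exception at 49.4% of vec. The standard errors ran from 0.17 to 0.34 on the log2 scale. These counts rest on all 4 arrays. Upper bounds below a 1.5-fold rise numbered 10 without vec 1, 12 without vec 2, 4 without shpkp3-2 1 and 5 without shpkp3-2 2, and those below a 2-fold rise 15, 14, 14 and 11 in the same order. Lower bounds above a 2-fold fall numbered 16, 14, 10 and 11. The interval held 0 for 15 probes without vec 1, the exception being CTNND1 B, and for 12 without vec 2, the exceptions being PKP2 D, CTNND1 A, ARVCF B and JUP, none of them past the adjusted test. For comparison, the upper bound of the PKP3 interval was a log2 difference of -1.98 (25.4% of vec).

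**Figure D2:**
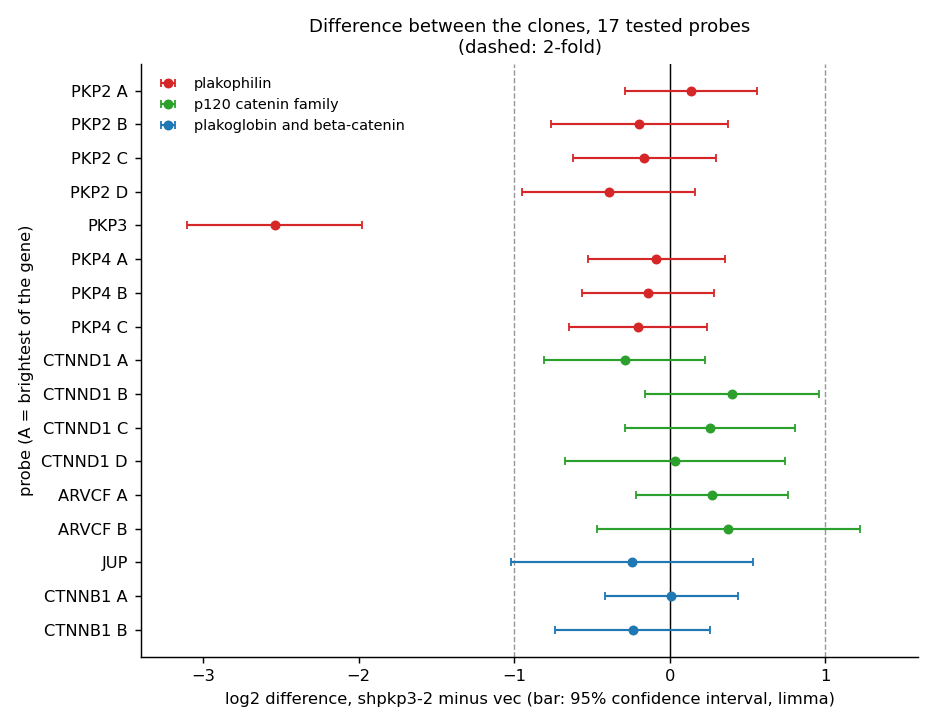
The plot of differences gives the log2 difference between shpkp3-2 and vec with its 95% confidence interval from limma (x axis) for the 17 tested probes (y axis), colored by protein family, with dashed lines at 2-fold. The PKP3 interval runs from -3.10 to -1.98 and the other 16 intervals all cross 0.

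Among the plakophilins, PKP2, which is found in desmosomes of simple epithelia and of heart muscle, had 4 probes. The signal of PKP2 A was 1367 on vec 1, 965 on vec 2, 1102 on shpkp3-2 1 and 1082 on shpkp3-2 2. On the normalized scale this was 1.40 ± 0.08 (SD, n = 2) for vec against 1.54 ± 0.0065 (SD, n = 2) for shpkp3-2, and the clones did not overlap. The log2 difference of 0.14 had an interval of -0.29 to 0.56 (limma, adjusted p = 0.770), which allows a rise of up to 1.48-fold, and it was 0.20 without vec 1 and 0.08 without vec 2.

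The other PKP2 probes lay on the opposite side of 0. PKP2 B read 715 and 375 with vec RNA and 388 and 393 with shpkp3-2 RNA, a log2 difference of -0.20, and vec 1 alone stood above the other arrays. Without vec 1 it turned to 0.08, and without vec 2 it was -0.47. PKP2 C read 256 and 164 with vec RNA and 154 and 162 with shpkp3-2 RNA, a log2 difference of -0.16 that was -0.03 without vec 1 and -0.29 without vec 2. PKP2 D, designed on a cDNA record of its own, read 46.3 and 25.2 with vec RNA and 21.4 and 23.6 with shpkp3-2 RNA. Its log2 difference was the lowest of the other members' probes, -0.39 with an interval of -0.95 to 0.16 (limma, adjusted p = 0.539), and it was -0.15 without vec 1 and -0.64 without vec 2 (interval -1.15 to -0.13, limma, adjusted p = 0.173). As the mean of its 4 probes, PKP2 had a log2 difference of -0.15 instead of 0.14, so the data give this gene no direction.

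PKP4 had 3 probes, which all lay slightly below 0. PKP4 A read 7922 and 6837 with vec RNA and 6233 and 5753 with shpkp3-2 RNA. After normalization the levels were 4.08 ± 0.12 (SD, n = 2) for vec against 3.99 ± 0.07 (SD, n = 2) for shpkp3-2, and the clones overlapped. The log2 difference was -0.09 with an interval of -0.53 to 0.35 (limma, adjusted p = 0.873), so a rise of more than 1.28-fold lies outside it. Without vec 1 the difference was -0.17 and without vec 2 it was 0.0018.

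PKP4 B and PKP4 C were a little lower in shpkp3-2 in both collections. PKP4 B read 5009 and 3799 with vec RNA and 3562 and 3289 with shpkp3-2 RNA, a log2 difference of -0.14. PKP4 C read 188 and 165 with vec RNA and 136 and 127 with shpkp3-2 RNA, a log2 difference of -0.20 that was -0.30 without vec 1 and -0.11 without vec 2. Their intervals reached up to 1.22-fold and 1.18-fold above vec.

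PKP1, the plakophilin of the upper layers of stratified epithelia, reached the call well above background on 0 of the 4 arrays. Its signal was 3.82 on vec 1, 7.72 on vec 2, 3.15 on shpkp3-2 1 and 7.49 on shpkp3-2 2, while the lowest signal that the software called well above background lay between 8.41 and 9.74. Both low readings came from the first collection and both higher ones from the second, in vec and shpkp3-2 alike. The weaker call of the software, a positive and significant signal, held on the 4 arrays. No fold is given for PKP1, and a rise that leaves it under that limit would not have been detected.

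Of the p120 catenin family, CTNND1 was read by 4 probes whose values did not run the same way. CTNND1 A read 848 and 484 with vec RNA and 439 and 467 with shpkp3-2 RNA. Its normalized level was 0.56 ± 0.30 (SD, n = 2) for vec against 0.27 ± 0.07 (SD, n = 2) for shpkp3-2, a log2 difference of -0.29 with an interval of -0.81 to 0.23 (limma, adjusted p = 0.613). It was -0.08 without vec 1 and -0.50 without vec 2, where the interval of -0.99 to -0.01 left out 0 (limma, adjusted p = 0.215). After normalization shpkp3-2 was the lower clone on both occasions, though its arrays, at 0.21 and 0.32, came close to vec 2 at 0.34.

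CTNND1 B, designed on the same transcript record as CTNND1 A, lay on the other side of 0. It read 47.1 and 25.3 with vec RNA and 37.8 and 41.1 with shpkp3-2 RNA. The log2 difference of 0.40 was the highest of the other members' probes, with an interval of -0.16 to 0.96 (limma, adjusted p = 0.533), and after normalization both shpkp3-2 arrays stood above both vec arrays. Here too the size rested on single vec arrays, with 0.66 without vec 1 (interval 0.18 to 1.13, limma, adjusted p = 0.225) and 0.15 without vec 2. CTNND1 C read 31.2 and 31.3 with vec RNA and 36.0 and 29.0 with shpkp3-2 RNA, a log2 difference of 0.26 that was 0.06 without vec 1 and 0.46 without vec 2. CTNND1 D read 40.8 and 18.4 with vec RNA and 26.7 and 22.01 with shpkp3-2 RNA, a log2 difference of 0.03 that was 0.41 without vec 1 and -0.35 without vec 2. The mean of the 4 probes gave 0.10 where the brightest gave -0.29, so this gene too has no settled direction.

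CTNND2, or delta-catenin, is best known from neurons. CTNND2 A read 12.2 and 9.43 with vec RNA and 18.1 and 8.91 with shpkp3-2 RNA, and it was well above background on vec 1 and shpkp3-2 1 only. The highest reading came from 1 shpkp3-2 array and the lowest from the other. CTNND2 B read between 1.92 and 2.19 and was well above background on no array. No difference is given for CTNND2.

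ARVCF, a catenin that binds classical cadherins as p120 does, was the one relative whose tested probes all lay above 0. Its brightest probe stayed above 0 under each alternative that was run, but its second probe did not. ARVCF A read 341 and 319.7 with vec RNA and 372 and 319 with shpkp3-2 RNA. The normalized level was -0.40 ± 0.21 (SD, n = 2) for vec against -0.13 ± 0.14 (SD, n = 2) for shpkp3-2. The clones did not overlap, but vec 2 and shpkp3-2 2 were almost level at -0.25 and -0.23. The log2 difference of 0.27 had an interval of -0.22 to 0.76 (limma, adjusted p = 0.613), and it was 0.12 without vec 1 and 0.42 without vec 2.

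ARVCF B read 198 and 309 with vec RNA and 289 and 265 with shpkp3-2 RNA. The low array was vec 1, and vec 2 lay above both shpkp3-2 arrays. Its log2 difference of 0.38 had the widest interval of all, -0.47 to 1.22 (limma, adjusted p = 0.686). Without vec 1 it turned to -0.14, and without vec 2 it was 0.89 (limma, adjusted p = 0.123). It was 0.94 within the first collection and -0.19 within the second, so this probe has no settled direction.

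Plakoglobin, which serves both desmosomes and adherens junctions, was read by 1 probe. Its signal was 9123 on vec 1, 3867 on vec 2, 3855 on shpkp3-2 1 and 4895 on shpkp3-2 2. The vec 1 array stood above the other 3. The normalized level was 3.77 ± 0.60 (SD, n = 2) for vec against 3.53 ± 0.26 (SD, n = 2) for shpkp3-2. The log2 difference was -0.24 with an interval of -1.02 to 0.54 (limma, adjusted p = 0.785), it was -0.85 in the first collection and 0.37 in the second, and it was 0.19 without vec 1 and -0.67 without vec 2 (interval -1.28 to -0.05, limma, adjusted p = 0.203). JUP therefore has no direction here, and its interval leaves room for a rise of up to 1.45-fold.

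Desmoplakin and alpha-catenin, which join plakoglobin to the cytoskeleton, were also highest on vec 1. Desmoplakin (DSP), which anchors keratin filaments, read 9637 and 5330.4 with vec RNA and 4221 and 5979 with shpkp3-2 RNA. The brighter probe of alpha-catenin (CTNNA1) read 7981 and 3691 with vec RNA and 3578 and 4158 with shpkp3-2 RNA. Their log2 differences were -0.30 and -0.28 (limma, adjusted p = 0.669 and 0.709), and they changed sign between the collections as that of JUP did. The second CTNNA1 probe gave 0.04.

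Beta-catenin had the flattest probe of the set. CTNNB1 A read 9513 and 7848 with vec RNA and 7375 and 7675 with shpkp3-2 RNA, which on the normalized scale was 4.31 ± 0.08 (SD, n = 2) and 4.32 ± 0.05 (SD, n = 2). The log2 difference of 0.01 had an interval of -0.42 to 0.44, or 74.98% to 135.6% of vec (limma, adjusted p = 0.984). A value so near 0 has no direction, and it lay at -0.03 with normexp background correction, -0.07 with quantile normalization and -0.06 with median centring, which shifts all probes alike. CTNNB1 B read 752 and 445 with vec RNA and 410.0 and 438 with shpkp3-2 RNA, and its log2 difference was -0.24 with an interval of -0.74 to 0.26 (limma, adjusted p = 0.661), moving to -0.05 without vec 1 and -0.42 without vec 2. Transcript levels say nothing of the amount or place of the protein, which is what the Wnt pathway regulates in the case of beta-catenin.

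Replicates of vec differed more than those of shpkp3-2 for these genes. The SD between the vec arrays exceeded that between the shpkp3-2 arrays for 15 of the 16 probes, or 93.8%, against 66.3% of all tested probes. The median SD was 0.27 in vec and 0.076 in shpkp3-2, against 0.20 and 0.12 over all tested probes. In 10 of the 16 probes vec 1 was the higher vec array after normalization, a share that was not counted over all tested probes.

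The sign of the difference was not steady between the RNA collections for these probes. For 9 of the 16 probes it was opposite in the first and the second collection, and shpkp3-2 was higher for 7 probes in the first and 8 in the second. These counts were not taken over all tested probes, so they cannot be read as particular to these genes. The clones did not overlap for 7 of the 16 probes, 3 higher and 4 lower in shpkp3-2, which is 43.8% beside 45.2% of all tested probes. That share is close to the background, so the absence of overlap is no result about these genes. PKP3 was lower in both collections, by log2 differences of -2.21 and -2.86. A permutation of 2 arrays against 2 cannot give an exact two-sided p below 0.333, so single probes were judged only by limma.

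**Figure D3:**
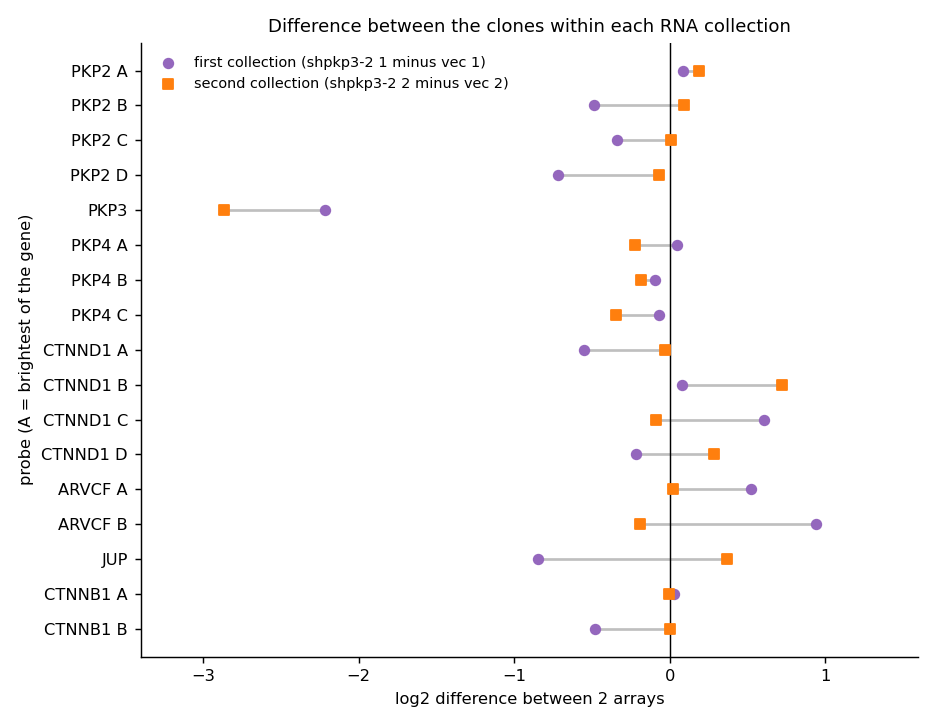
The plot by RNA collection gives the log2 difference between the shpkp3-2 and the vec array of the first collection (purple circles) and of the second (orange squares) on the x axis for each tested probe on the y axis, with a gray line joining them. The line crosses 0 for 9 of the 16 probes other than PKP3, and the PKP3 values are -2.21 and -2.86.

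The genes with which these proteins work were examined through 5 lists with 75 genes in all, each gene taken by its brightest tested probe. Of these, 62 were tested, and 0 were called higher or lower by limma after adjustment. Their log2 differences lay above 0 for 27 and below 0 for 35, with a median of -0.04 against 0.05 over all tested probes. An unadjusted p under 0.05 was found for 4 of the 62, where 12.3% of all tested probes had such a p. One of the 4, RND1, was tested through the vec arrays alone and had to read lower in shpkp3-2, and the other 3 (VCL, AXIN2 and BTRC) read lower. Over all 109 tested probes of these genes, 0 were called, and 8, or 7.34%, had an unadjusted p under 0.05. Among the 108 that were well above background on the 4 arrays there were 7 such probes, 1 higher and 6 lower in shpkp3-2. Of the 26 genes with more than 1 tested probe, 14 had probes on both sides of 0, so a value of the brightest probe alone is not the value of the gene.

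The list of junction partners held 19 desmosomal and adherens junction genes, of which 11 were tested, with a median log2 difference of -0.07. The desmogleins DSG1, DSG3 and DSG4, the desmocollin DSC1, the cadherins CDH2 and CDH5 and the alpha-catenins CTNNA2 and CTNNA3 were well above background on no array. The desmosomal cadherins that were read were DSG2, with a log2 difference of -0.10, DSC2 with 0.18 and DSC3 with 0.43 (limma, adjusted p = 0.862, 0.737 and 0.489). The desmosome-associated membrane protein PERP had 0.09.

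E-cadherin (CDH1), the cadherin bound by CTNND1, JUP and CTNNB1, read 4526 and 2631 with vec RNA and 3850.05 and 4385 with shpkp3-2 RNA. After normalization both shpkp3-2 arrays lay above both vec arrays, with a log2 difference of 0.46 and an interval of -0.06 to 0.99 (limma, adjusted p = 0.456). The interval left out 0 with normexp background correction (0.008 to 0.80) and with a trended and robust prior (0.03 to 0.89). It held 0 with quantile normalization, median centring, the other detection filters and the replicate block. CDH1 passed the adjusted test in none of these. The difference was 0.16 in the first collection and 0.76 in the second, and it was 0.66 without vec 1 and 0.27 without vec 2 (limma, adjusted p = 0.236 and 0.455). Vinculin (VCL), an actin linker, read 2872 and 1531 with vec RNA and 1109.7 and 1256 with shpkp3-2 RNA by its brighter probe, a log2 difference of -0.62 (limma, unadjusted p = 0.0392, adjusted p = 0.382). It was -0.36 without vec 1 and -0.88 without vec 2. Its second probe gave 0.07, so the probes of VCL disagree.

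Among the 18 regulators and partners of beta-catenin, 16 were tested, 8 above and 8 below 0. AXIN2, a scaffold of the complex that degrades beta-catenin and itself a widely used readout of Wnt signaling, had the lowest log2 difference, -0.79 with an interval of -1.26 to -0.32 (limma, unadjusted p = 0.00656, adjusted p = 0.225). Its signal was 938 on vec 1, 590.1 on vec 2, 393 on shpkp3-2 1 and 352 on shpkp3-2 2, and the clones did not overlap. The other AXIN2 probes gave -0.88 and -0.41 (limma, adjusted p = 0.158 and 0.623), and the brightest probe stayed between -0.93 and -0.65 whichever array was left out. AXIN2 did not pass the adjusted test under any of 13 alternatives, where its adjusted p ran from 0.116 to 0.762.

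BTRC, the F-box protein that recognizes phosphorylated beta-catenin, read 740 and 415 with vec RNA and 317 and 317 with shpkp3-2 RNA, a log2 difference of -0.59 (limma, unadjusted p = 0.0323, adjusted p = 0.360). It was -0.37 without vec 1 and -0.82 without vec 2. Its second probe gave -0.06. The transcription factors TCF7, TCF7L1 and TCF7L2, with which beta-catenin binds DNA, had log2 differences of 0.17, 0.07 and 0.12, though the other TCF7L2 probes gave -0.11 and -0.16, and LEF1 was well above background on no array. APC2, a relative of the scaffold APC, had -0.36 by its brightest of 4 probes, and the others ran from -0.47 (limma, unadjusted p = 0.0472, adjusted p = 0.400) to 0.20. The kinase genes GSK3A and GSK3B had 0.09 and -0.18.

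The 11 partners of the p120 family were all tested, with a median log2 difference of -0.13. The small GTPases RHOA and RAC1, which p120 is known to influence, had -0.14 and 0.02, with other probes from -0.23 to 0.08 and from -0.10 to -0.01. CDC42, a GTPase of the same family, had -0.03 by its brightest probe, but its other 3 probes gave 0.25, 0.42 and 1.04. The last of these read 12.7 and 17.6 with vec RNA and 26.2 and 26.7 with shpkp3-2 RNA (limma, unadjusted p = 0.0141, adjusted p = 0.282), so the probes of CDC42 disagree. ZBTB33, the transcriptional repressor Kaiso that p120 binds, had 0.02. RND1, a GTPase that opposes RHOA, read 33.2 and 18.1 with vec RNA and 6.76 and 14.7 with shpkp3-2 RNA. It was tested only because both vec arrays were well above background, and the reading of 6.76 lies under the lowest such signal of its array, 9.74. Its fitted log2 difference of -1.09 (limma, adjusted p = 0.366) is therefore not a measured size, and it was -0.12 with normexp background correction, -0.52 without shpkp3-2 1 and -1.66 without shpkp3-2 2.

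Plakophilins are also known to occur with RNA-binding proteins in ribonucleoprotein particles. The 9 genes of that list, among them PABPC1, FXR1, G3BP1 and the helicase EIF4A1 bound by PKP1, were all tested and had, by their brightest probes, a median log2 difference of 0.05, from -0.33 for FXR2 to 0.25 for FMR1. Other probes went further, to 0.51 for FMR1 and EIF4A1 and to -0.71 for CAPRIN1 (limma, unadjusted p = 0.00737, adjusted p = 0.232), whose brightest probe gave 0.05. The 18 other genes with armadillo repeats, such as the importin alpha genes KPNA1 and KPNA2, were a reference for the domain alone. Of these, 15 were tested, with a median of -0.06 and a range of -0.25 to 0.25 by the brightest probes, and a second probe of ARMCX3 gave 0.46.

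**Figure D4:**
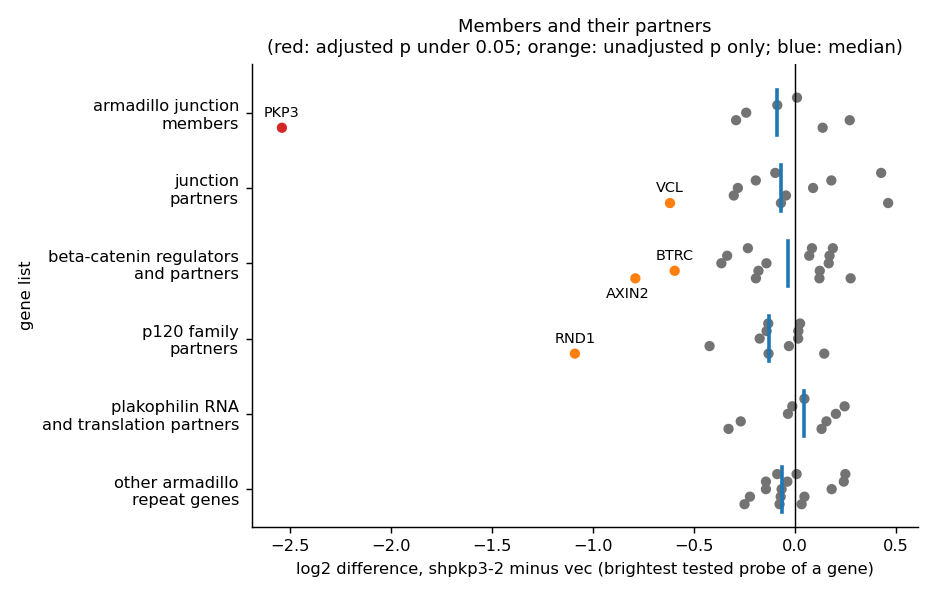
The plot of partners gives the log2 difference of the brightest tested probe (x axis) of each gene in 6 sets (y axis), the members first and then the 5 partner lists. PKP3 at -2.54 is the only point in red (adjusted p under 0.05), the 4 orange points VCL, AXIN2, BTRC and RND1 have an unadjusted p under 0.05 only (RND1 was tested through the vec arrays alone), and the blue bars are the medians of the sets.

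The genes whose pattern over the 4 arrays was most like that of PKP3, by the smallest Euclidean distance between centered log2 values over 21609 probes compared, were none of its relatives. They were FOXA2, an endodermal transcription factor, at a distance of 0.48, the neurotrophin BDNF at 0.58 and RGS2, a regulator of G protein signaling, at 0.61. FOXA2 read 92.1 and 73.5 with vec RNA and 12.8 and 15.4 with shpkp3-2 RNA, BDNF 895 and 854 with vec RNA and 172 and 197 with shpkp3-2 RNA, and RGS2 14401 and 11255 with vec RNA and 2731 and 2633 with shpkp3-2 RNA. These values describe 4 arrays that share the same contrast with PKP3.

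The labelled cell type was checked on marker genes. Of 6 genes of simple epithelium, EPCAM, KRT8, KRT18, KRT19 and CDH1 were well above background on all 4 arrays, VIL1 was so on 1, and the summed signal of the list was 548961 and 476617 with vec RNA and 531158 and 534636 with shpkp3-2 RNA, before normalization. After it the 5 tested genes of this list all had log2 differences above 0, from 0.04 to 0.46 with a median of 0.33, and 0 were called. Of 6 genes of stratified epithelium, KRT5, KRT1 and DSG3 were above background on no array, KRT14 and KRT10 were on all and TP63 was on 1 array of each clone, with sums of 32116 and 26144 with vec RNA and 29888 and 27953 with shpkp3-2 RNA. COL1A1 was the one of 6 fibroblast genes above background, the list summing to 202 and 119 with vec RNA and 126 and 144 with shpkp3-2 RNA. Of 5 leukocyte genes PTPRC and LYZ were above background on no array, and the list summed to 255 and 165 with vec RNA and 199 and 245 with shpkp3-2 RNA. Of 4 genes of heart muscle only ACTC1, and of 4 neuronal genes only TUBB3 and SYT1, were above background on all arrays.

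**Figure D5:**
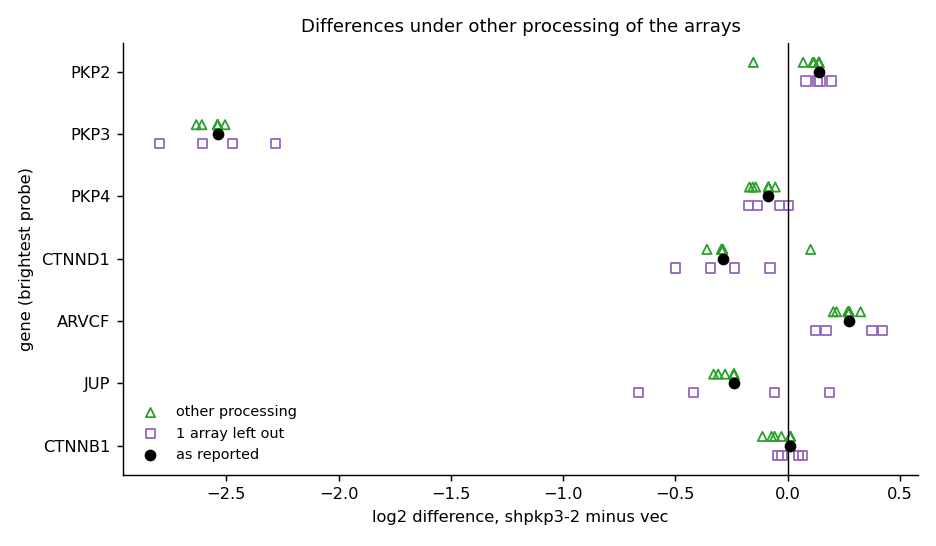
The plot by processing gives the log2 difference (x axis) of the brightest probe of the 7 tested members (y axis) as reported (black), under other processing (green triangles, among them the mean of all tested probes of the gene) and with 1 array left out (purple squares). PKP3 stays between -2.80 and -2.28 and ARVCF between 0.12 and 0.42, while PKP2 and CTNND1 cross 0 only as means of their probes, at -0.15 and 0.10.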

How the data were processed

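Cy3 labeled RNA of 2 vec and 2 shpkp3-2 samples was hybridized to single color Agilent arrays. The authors deposited the scanner output, in which the processed signal is a linear intensity after background subtraction, not normalized between arrays, together with 0 or 1 flags. The labels name Feature Extraction 9.1, the file headers 10.7.3.1.

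From the deposited intensities, the log2 of the processed signal minus the 75th percentile of the 51538 spots that are not controls was computed per array, without spots marked as non-uniform (26 to 39 per array). Spots of a probe were averaged. Between 60.5% and 63.5% of spots were well above background, and 0 were saturated. Probes well above background on both arrays of a clone were fitted with limma (lmFit and eBayes, 5.94 degrees of freedom) and Benjamini-Hochberg adjustment, at 0.05. The number of arrays limits the precision. Nothing states that the samples came from separate cultures, so p-values measure the spread between RNA collections. The series' design text gives same-numbered samples a shared RNA collection, which makes them pairs; their deviations from the clone means correlated at -0.199 over 30512 probes. The limma fit was checked on simulated data with large changes and the same spread in both clones, which says nothing of smaller changes.

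The members and gene lists were chosen with earlier results of these data known. Named were all members, the partners whose brightest probe had an unadjusted p under 0.05, 6 junction genes (DSP, DSG2, DSC2, CDH1, CTNNA1, PERP) and the 3 genes most like PKP3; partners named beyond these show the range of a list and were picked after their values were seen. Alternatives changed background correction, normalization, the detection filter, the prior, the replicate block, the probe summary and the arrays included.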

Additional observations from a re-analysis of the deposited data

How the results depend on the processing

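With 2 arrays per clone, the absence of a call does not show the absence of a difference. Over 12 alternatives, 0 probes of the other members were called higher or lower, and over 13, 0 partner genes. PKP3 kept a log2 difference of -2.54 but missed the threshold without the detection filter (adjusted p = 0.135) and with the weaker detection flag (adjusted p = 0.145), where more probes were tested. With each array left out in turn it stayed between -2.80 and -2.28 and passed, the lone array being assumed to vary like the others. With the RNA collection as a replicate block it was -2.54 (SE 0.28, limma, adjusted p = 1.265e-07). That SE is larger than the 0.23 as reported, so the smaller p does not reflect a tighter estimate of the difference. The block changed no call among the members or partners. Calls over all probes, 75 higher and 44 lower as reported, were 503 and 338 with the block, 109 and 64 with normexp, 42 and 32 with quantile normalization, 82 and 59 with median centring, 10 and 8 without the filter, 1 and 1 with the weaker flag, 25 and 21 when all 4 arrays had to be above background and 114 and 59 with a trended and robust prior. Without vec 1 they were 171 and 142, without vec 2 108 and 154, without shpkp3-2 1 243 and 55, and without shpkp3-2 2 223 and 80.

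Of 129 values of single genes under alternatives, 119 kept their direction and 10 reversed, none past the threshold. Changes of the detection filter, the prior and the replicate block leave a log2 difference as it is. Those values could not reverse, so the count of kept directions overstates how steady they are. CTNNB1 turned to -0.028 with normexp, -0.072 with quantile normalization, -0.058 with median centring, -0.11 as the mean of its probes, -0.043 without vec 1 and -0.026 without shpkp3-2 2. JUP turned to 0.19 without vec 1, PKP4 to 0.0018 without vec 2, and as means of their probes PKP2 turned to -0.15 and CTNND1 to 0.10. With each array left out, JUP ran from -0.67 to 0.19, PKP4 from -0.17 to 0.0018 and CTNNB1 from -0.043 to 0.067. The cause of these turns was not tested.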
